A study of Mus musculus with 14 samples.

Results

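The cytosolic ribosomal protein genes were taken from the RNA-seq tables by symbol: every Rpl or Rps number, with or without an a, x, y or l ending, together with Rpsa, Rplp0, Rplp1, Rplp2 and Fau, and without pseudogenes. This gave 83 genes of the 23152 loci in each table, 32 of the small (40S) and 51 of the large (60S) subunit. They lie on 20 chromosomes, with 4 of them (Rpl10, Rpl36a, Rpl39 and Rps4x) on the X chromosome. Ribosomal protein genes whose symbols do not have this form, such as Rps3a1, were not members. TAF9B is a paralog of TAF9, a subunit of the TFIID and SAGA complexes that act at promoters, and the study asked what its loss does to gene expression in cells that become motor neurons.

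All samples were labelled C57BL/6. The cultures labelled WT came from the JM8 clone and those labelled TAF9B -/- (KO) from the Taf9b_BG10 clone, so each genotype was 1 clone, and in the KO clone a LacZ-Neo cassette stands in place of the coding exons of Taf9b in all cells. Each genotype was sequenced as undifferentiated mouse embryonic stem cells (mESC), as embryoid bodies (EB) at day 2, as neuronal progenitors at day 4 and as motor neuron cultures at day 6, after induction with retinoic acid and an agonist of smoothened. Newborn lumbar spinal column tissue was sequenced from WT and KO mice, the latter bred from the KO clone, and newborn spinal cord from WT mice. The number of animals in a library was not given in the sources used here. ChIP-seq against TAF9B and RNA POL2 was done in WT motor neuron EBs of another line, HBG3, which the study differentiated for longer than the day 6 cultures. There was 1 library per condition, 11 RNA-seq libraries in all, so no value below has a replicate error and no difference at a single stage or in a tissue could be tested. The 4 culture stages gave 4 pairs of KO and WT libraries, and a genotype difference over these pairs was tested, with the limit that each genotype was 1 clone.

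A ribosome is built from ribosomal RNA and one copy of most ribosomal proteins, so growing cells make these proteins in close to equal amounts and in very large numbers. Their mRNAs are short and among the most abundant of a cell, and most begin with a C followed by a run of C and T, the terminal oligopyrimidine (TOP) sequence, through which translation is tied to mTORC1 signaling. Transcription of the rRNA by RNA polymerase I and III, assembly factors in the nucleolus and the elongation factors that work with the finished ribosome belong to the same program, which is high in dividing cells and lower in postmitotic neurons. A few ribosomal proteins have paralogs made in 1 tissue, such as Rpl3l in striated muscle and Rpl10l and Rpl39l in testis.

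The start sites are shown first, because the TOP sequence is known of these mRNAs. RefSeq promoter windows (GRCm38.p6, 250 bases before to 50 after a start) were at hand for 63 members, 75 windows in all. In 28 of the 75, or 37.3%, a run of at least 6 C or T letters that began with C lay within 5 bases of the start on the gene's strand, against 10.2% of all 32851 windows. The 5 members with the longest runs, and Rps27, which stood apart in spinal cord below, are given here from 10 bases before the start to 20 after it, on the strand of the gene, with the run in capitals.
Rpl27a (chr7:109519185-109519214, plus strand): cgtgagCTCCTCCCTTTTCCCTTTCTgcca
Rpl15 (chr14:18270967-18270996, minus strand): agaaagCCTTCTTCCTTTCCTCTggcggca
Fau (chr19:6057937-6057966, plus strand): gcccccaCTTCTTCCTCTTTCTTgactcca
Rpl35 (chr2:39005112-39005141, minus strand): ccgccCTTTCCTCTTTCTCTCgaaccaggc
Rpl13a (chr7:45128726-45128755, minus strand): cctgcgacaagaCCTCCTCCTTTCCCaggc
Rps27 (chr3:90213629-90213658, minus strand): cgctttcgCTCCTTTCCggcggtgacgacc
The runs were 20 letters long in Rpl27a, 17 in Rpl15, 16 in Fau and in Rpl35, 14 in Rpl13a and 9 in Rps27. The letters CTTTCC, searched on the gene's strand within 50 bases of the start and often part of such a run, were in 30.7% of the member windows and in 4.69% of all windows.

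The letters CCGGAA, the core that ETS family factors recognize, were found on either strand of the window in 34 of 75 member windows (45.3%) and in 14.9% of all windows. The examples below are the 5 members with the highest TAF9B peak score among those with this motif before the start and a TAF9B peak at the start of the transcript nearest to the locus, given as 12 bases on each side of the copy nearest to the start, with the motif in capitals as it reads on the strand of the gene (CCGGAA or its reverse complement TTCCGG).
Rps6 (chr4:86857441-86857470, minus strand): gttaatctacgcCCGGAAgtaacgcccctc
Rps10 (chr17:27635256-27635285, minus strand): gagccgcgcagcCCGGAAgagacgctgcgc
Rplp2 (chr7:141447532-141447561, plus strand): gaaatgtcttccTTCCGGtgcacccttttc
Rpl27 (chr11:101442213-101442242, plus strand): cacacgccggaaCCGGAAcgctctgttcct
Rps7 (chr12:28635949-28635978, minus strand): tttcagaagagcTTCCGGtttccacccacc
The motif began 91 bases before the start in Rps6, 29 in Rps10, 107 in Rplp2, 20 in Rpl27 and 13 in Rps7. The YY1 core GATGGC, on either strand, was in 25.3% of member windows against 14.1% of all, and the GC box GGGCGG was in 58.7% against 35.7%. TATAAA was in 9.33% of member windows against 13.6% of all. A match of letters is a description and not a site of binding, and members with 2 annotated starts enter these shares with 2 windows.

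The labels were checked against Taf9b and against cell type markers. Taf9b was listed at 6.65 FPKM (fragments per kilobase of transcript, scaled to the mapped fragments of the library) in the spinal column library labelled WT and at 3.31 in the one labelled KO. In the cultures it was higher in the libraries labelled KO at all 4 stages, from 0.537 against 3.06 FPKM in mESC to 1.37 against 4.01 at day 6, which goes against the labels, so libraries are named by their labels throughout. Whether labels were exchanged, or whether the signal is from the part of the locus that the cassette leaves in place, was not tested, since FPKM is given per locus. Every direction between KO and WT below rests on the labels. Between the same labels, the day 6 libraries also differed in markers, with motor neuron markers at a sum of 75.4 FPKM labelled WT and 3.34 labelled KO and ES cell markers at 415 and 982. Pou5f1, the core pluripotency factor, was at 859 FPKM in the mESC library labelled WT and Tubb3, the neuronal tubulin, at 561 FPKM in the day 6 library labelled WT. Skeletal muscle genes were present in spinal column (Tnnt3 at 2927 and 4489 FPKM) and the tables list Acta1 at 0 in both spinal column libraries because Cuffdiff gave no estimate, as for 13 loci of that table and for no member.

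Ribosomal protein mRNAs made up between 14.4% and 32.9% of all FPKM in a library. The share was 23.2% in both mESC libraries, between 29.4% and 32.9% in the 6 EB libraries, 16.6% in spinal column labelled WT, 24.2% in spinal column labelled KO and 14.4% in spinal cord. The 40S genes alone held between 6.51% and 15.4%. A share is taken within a library and does not depend on how its table was scaled. In bulk libraries, fewer cells with high levels and less of these RNAs per cell cannot be told apart.

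Across the 11 libraries 79 of the 83 members had a mean of at least 10 FPKM, and the other 4 were the paralogs Rpl3l, Rpl10l, Rpl39l and Rpl32l. The median FPKM of the 79 was 1658 in mESC labelled WT and 1710 in mESC labelled KO. It was 2565 and 2697 at day 2, 2334 and 2548 at day 4, and 2706 and 2676 at day 6 in the same order of labels. It was 1016 in spinal column labelled WT, 2274 in spinal column labelled KO and 626 in spinal cord. Each table was scaled separately by Cuffdiff, so levels set across tables carry that scaling: the mESC WT library stands in 2 tables, and its values are 1.089 times higher in the spinal cord table. Between 41 (spinal cord) and 73 (day 4 labelled KO) of the 100 loci with the highest FPKM in a library were members.

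**Figure D1:**
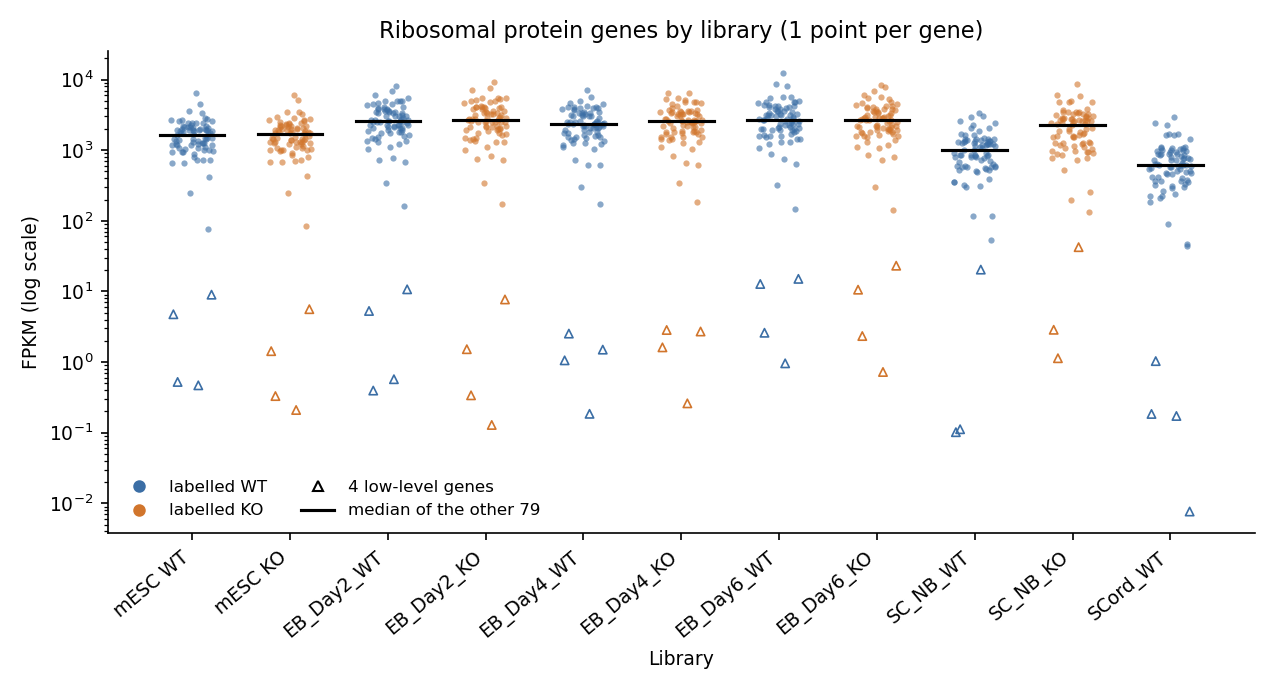
FPKM (log axis) of the ribosomal protein genes in each of the 11 libraries, 1 point per gene, blue for libraries labelled WT and orange for those labelled KO; black bars are the medians of the 79 genes with a mean of at least 10 FPKM and triangles are the 4 low-level paralogs, with values listed at 0 not drawn. The bars lie between 1658 and 2706 FPKM in the cultures, at 1016 and 2274 in spinal column and at 626 in spinal cord.

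The 79 genes were far from equal in FPKM. Rpl41, which encodes the shortest ribosomal protein, had the highest mean over the libraries, 6808 FPKM, followed by the stalk protein gene Rplp1 at 5957, Rps28 at 4861, Rps12 at 4366 and Rps26 at 3950. The lowest of the 79 were Rps15a at 125 FPKM, Rpl22 at 261, Rps27l at 489, Rpl36al at 640 and Rpl21 at 651. The transcript model matched to Rps15a here has 5130 nt, against a median of 772 nt for the members. FPKM is a level per length of the model, and the lengths that Cuffdiff used were not given. The coefficient of variation over the 79 was between 48.6% and 69.5% in a library.

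The order of the genes was much the same from library to library. Spearman's rho between the FPKM of the 79 genes in 2 libraries was between 0.885 and 0.995 over the 28 pairs of cultures (median 0.95), between 0.919 and 0.961 over the 3 pairs of tissues, and between 0.725 and 0.879 over the 24 pairs of a culture and a tissue (median 0.83). The points of each correlation share gene models and library preparation, and genes are not independent replicates. Reads of ribosomal protein genes can also match their many processed pseudogenes, and how the mapping shared them out was not stated.

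In ES cells the libraries labelled KO and WT differed little in these genes. The median log2 ratio of KO over WT FPKM over the 81 members above 1 FPKM in at least 1 library was 0.05, against 0.02 over all 12019 genes so measured, and 59 members were higher and 22 lower. With the trend of all genes on transcript length removed (a lowess curve, used throughout), the median was 0.00 and 43 of the 80 members with a length were above the curve and 37 below it. Rps21 was highest, at 1781 FPKM labelled WT and 2200 labelled KO (0.30), followed by Rplp0 (0.22), the base of the ribosomal stalk, and Rps29 (0.21). The lowest was Rpl39l, at 4.75 and 1.43 FPKM (−1.74), then Rpl10l (−0.68) and Rpl13 (−0.14). Rpl39l was the 1 member past 2-fold, lower, against 0.591% of all genes lower and 0.541% higher.

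At day 2 the median was 0.07, against 0.00 over all 11951 genes, with 61 of 81 members higher (65 of 80 above the length curve). Rplp0 was listed at 3329 FPKM labelled WT and 3917 labelled KO (0.23) and Rps12 at 6074 and 7034 (0.21), both among the 3 highest ratios. Rpl39l was again the 1 member past 2-fold, at 5.29 and 1.52 FPKM (−1.80), against 1.4% of all genes lower and 1.19% higher past 2-fold. Rpl10l (−0.48) and Rpl23 (−0.08) were the next lowest.

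At day 4 the median was 0.14, against −0.03 over all 12543 genes, with 67 of 82 members higher (74 of 80 above the length curve, with a median of 0.26). No member passed 2-fold in either direction, where 12.1% of all genes were higher and 4.43% lower. Rps12, a small subunit protein near the beak of the 40S, was at 4665 FPKM labelled WT and 6406 labelled KO (0.46). Rpl41 was at 7128 and 5196 (−0.46), followed among the lowest by Rpl13a (−0.37) and Rpl36 (−0.29). The low-level Rpl10l, at 1.5 and 2.71 FPKM (0.85), and Rpl39l, at 1.06 and 1.61 (0.61), had the highest ratios. At this stage all 6 ES cell markers were higher in the library labelled KO (median 2.00; summed 114 and 266 FPKM), as were all 5 fibroblast markers (median 3.12; summed 4.12 and 30.3 FPKM), and their part in the ribosomal protein values was not tested.

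At day 6 the median was −0.05, against −0.00 over all 12985 genes, with 33 members higher and 49 lower. With the trend on length removed the sign and the balance turned, to a median of 0.05 with 48 members above the curve and 32 below. Again no member passed 2-fold, against 10.5% of all genes higher and 9.93% lower. Rpl41 was at 12514 FPKM labelled WT and 8249 labelled KO (−0.60), Rps28 at 8623 and 6845 (−0.33) and Rpl37a at 2739 and 2180 (−0.33). Rpl10l was at 15.1 and 23.1 FPKM (0.62), Rps12 at 4760 and 6129 (0.36) and Rps27l, a paralog of Rps27 that p53 is known to induce, at 641 and 801 (0.32). Beside these values, all 6 neuron markers were lower past 2-fold in the library labelled KO (median −4.09; summed 810 and 108 FPKM) and all 6 motor neuron markers as well (Chat listed at 0 in the library labelled KO), while the 6 ES cell markers were all higher (median 1.46) and so were the 5 fibroblast markers (median 1.49, 4 past 2-fold, summed 43.2 and 120 FPKM). Their part in the ribosomal protein values was not tested. The share of the library held by ribosomal protein genes was 30.9% in both.

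In these 4 comparisons of cultures, which use different libraries but the same pair of clones, 21 of the 79 genes were higher in the library labelled KO each time, or 26.6%, against 15.0% of the 10976 genes expressed at all 4 stages. Rplp0 (0.22, 0.23, 0.37 and 0.23) and Rps12 (0.18, 0.21, 0.46 and 0.36) were among them, as was Rpsa (0.10, 0.11, 0.23 and 0.14), which encodes the small subunit protein also known as the laminin receptor. Rpl3, which lines the peptidyl transferase center, was the 1 gene lower each time (−0.08, −0.02, −0.23 and −0.11), against 12.2% of all genes. The standard deviation of the log2 ratio over the 79 genes was 0.08 in mESC, 0.07 at day 2, 0.18 at day 4 and 0.15 at day 6.

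Over the 4 pairs together, no member was called different between the genotypes. Genotype and stage were terms on log2(FPKM + 1) of the 8 culture libraries. At an adjusted p under 0.05 limma called none of 81 members and 0% of the 11005 genes tested. With no gene called, this fit cannot tell members that changed from members that did not. At an unadjusted p under 0.05 there were 3 members, all higher in the libraries labelled KO, and 13.8% of all genes. The share of all genes rested on the later pairs: without day 4 it was 4.77% and without day 6 it was 4.99%, with 3 members each time, of which 1 was lower without day 4 and also without day 2. Rplp0 (0.26 ± 0.07 SE, adjusted p = 0.359) and Rps12 (0.30 ± 0.08, adjusted p = 0.359 in limma) had the lowest p-values and were higher in 4 of 4 pairs. The largest estimate was that of Rpl39l (−0.62 ± 0.31, adjusted p = 0.379 in limma), lower in 3 of 4 pairs. The stages stand in for replicates in this fit, so a difference that changes from stage to stage counts as error, and with 1 clone per genotype the clone and the genotype cannot be told apart.

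**Figure D2:**
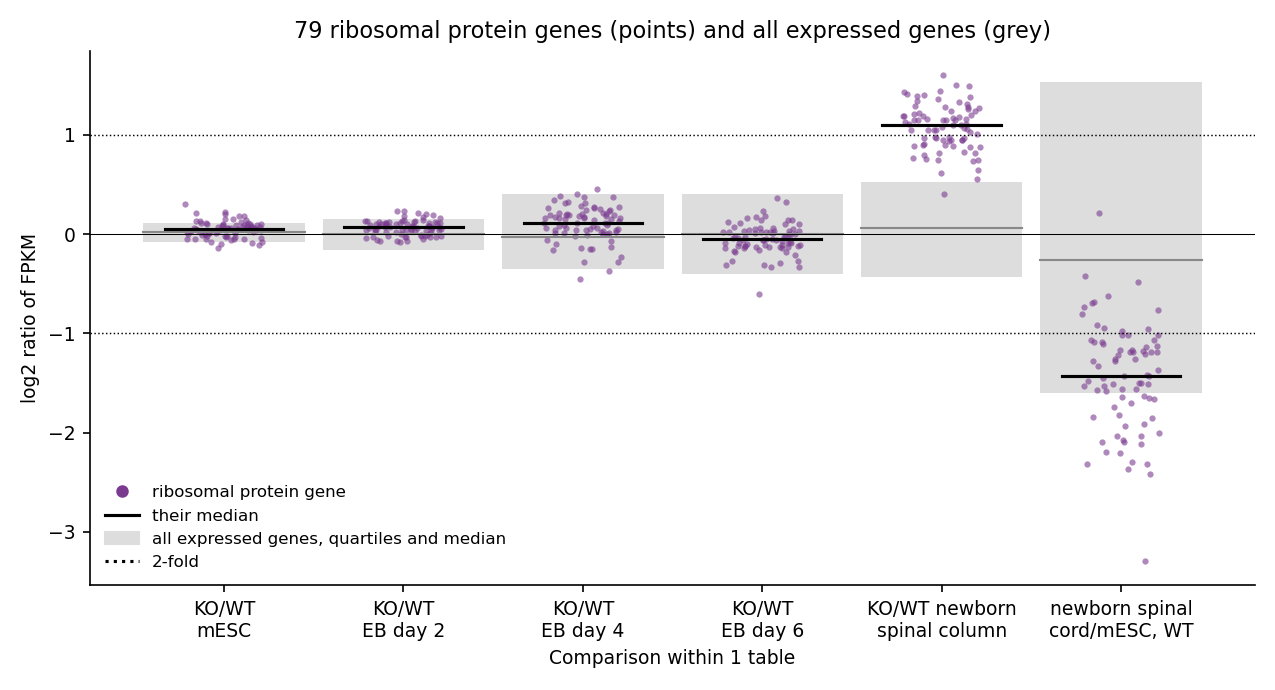
Log2 ratio of FPKM in the 6 comparisons made within a table, 1 point for each of the 79 ribosomal protein genes with a mean of at least 10 FPKM, black bars at their medians, and grey boxes from the first to the third quartile of all expressed genes with a line at their median; dotted lines mark 2-fold. The black bars are at 0.05, 0.07, 0.11 and −0.05 in the cultures, at 1.10 in spinal column and at −1.43 for spinal cord over mESC.

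Newborn spinal column differed from the cultures. In the library labelled KO all 82 members measured there were higher. The members' median was 1.10 on the log2 scale (2.14-fold), against 0.06 over all 14194 genes. Past 2-fold were 52 of the 82 (63.4%), against 9.07% of all genes, and none was lower past 2-fold, against 8.51%. Of the other genes of member length, described below, 34.0% were higher past 2-fold. With the trend on length removed, 4 of 80 members were. The 40S genes had a median of 1.15 (n = 32) and the 60S genes of 1.01 (n = 47). The standard deviation over the 79 genes was 0.24.

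Of the 32 small subunit genes 25 were past 2-fold, led by Rps12, Rps3, Rps14, Rps18, Rps15a and Rps24 and with Rps27, Rps19, Rps21, Rps27l, Fau and Rpsa among the others, and 7 were not, from Rps4x (0.74) and Rps28 (0.75) to Rps6 (0.97). Of the 50 large subunit genes measured 27 were past 2-fold, in falling order Rpl39l, Rpl32l, Rpl36, Rpl9, Rpl17, Rpl5, Rpl34, Rpl41, Rpl35, Rpl13a, Rpl32, Rpl35a, Rpl36al, Rpl10a, Rpl27, Rpl31, Rpl12, Rpl15, Rpl26, Rpl39, Rpl27a, Rplp0, Rpl3l, Rpl19, Rpl36a, Rpl24 and Rpl11. Rpl11 was just inside 2-fold, at 1410 FPKM labelled WT and 2843 labelled KO (1.01), and Rpl14 just outside it, at 488 and 959 (0.97).

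The 79 well expressed genes lay between 0.41 and 1.60. Rpl36, of the large subunit, was at 1096 FPKM labelled WT and 3324 labelled KO (1.60), Rps12 at 1674 and 4751, and Rpl41 at 3332 and 8570. At the low end Rpl4 was at 702 and 930 FPKM (0.41), Rpl10, which completes the large subunit late in its assembly, at 1430 and 2093 (0.55), and Rpl29 at 607 and 926 (0.61). The stalk genes lay between, with Rplp0 at 1422 and 3008 (1.08), Rplp1 at 3007 and 5782 (0.94) and Rplp2 at 1233 and 2382 (0.95). Rpsa was at 539 and 1118 (1.05) and Fau, whose product is cut into a ubiquitin-like protein and the small subunit protein eS30, at 1145 and 2542 (1.15).

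Transcript length went with the ratio across the whole spinal column table. Spearman's rho between log2 ratio and transcript length was −0.60 over 13349 expressed genes, where the points share the 2 libraries and their gene models, and the members are short, with quartiles at 561 and 1034 nt against a median of 2784 nt for expressed genes. The other genes with lengths between the quartiles of the members measured there (560 and 1025 nt, n = 903) had a median of 0.81, and 34.0% of them were higher past 2-fold. Among the 78 well expressed members with a length, rho was −0.10.

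Class by class, the members stood level with other genes where these were shortest and above them where they were longer. Up to 500 nt the median was 1.03 for 13 members and 1.02 for 140 other genes. From 500 to 1000 nt it was 1.14 for 46 members and 0.81 for 926 others, and from 1000 to 2000 nt it was 1.06 for 18 members and 0.46 for 3099 others. Of the 3 longer members, Rpl5, which carries the 5S rRNA into the large subunit and has a model of 2045 nt, was at 326 and 868 FPKM (1.41), and Rpl22, with 2051 nt, at 118 and 199 (0.76). With the trend of all genes on length removed, the median of the members was 0.29, 69 of 80 were above the curve and 4 of 80 were past 2-fold (Rpl39l at 4.06, Rps15a at 1.74, Rpl5 at 1.18 and Rps3 at 1.17). Rps15a, with the model of 5130 nt, was at 52.8 FPKM labelled WT and 134 labelled KO. Rps15a, Rpl5 and Rps3 (1908 nt) are among the members with the longest models, so their place above the curve rests on the transcript chosen. Whether Cuffdiff used these lengths was not tested.

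**Figure D3:**
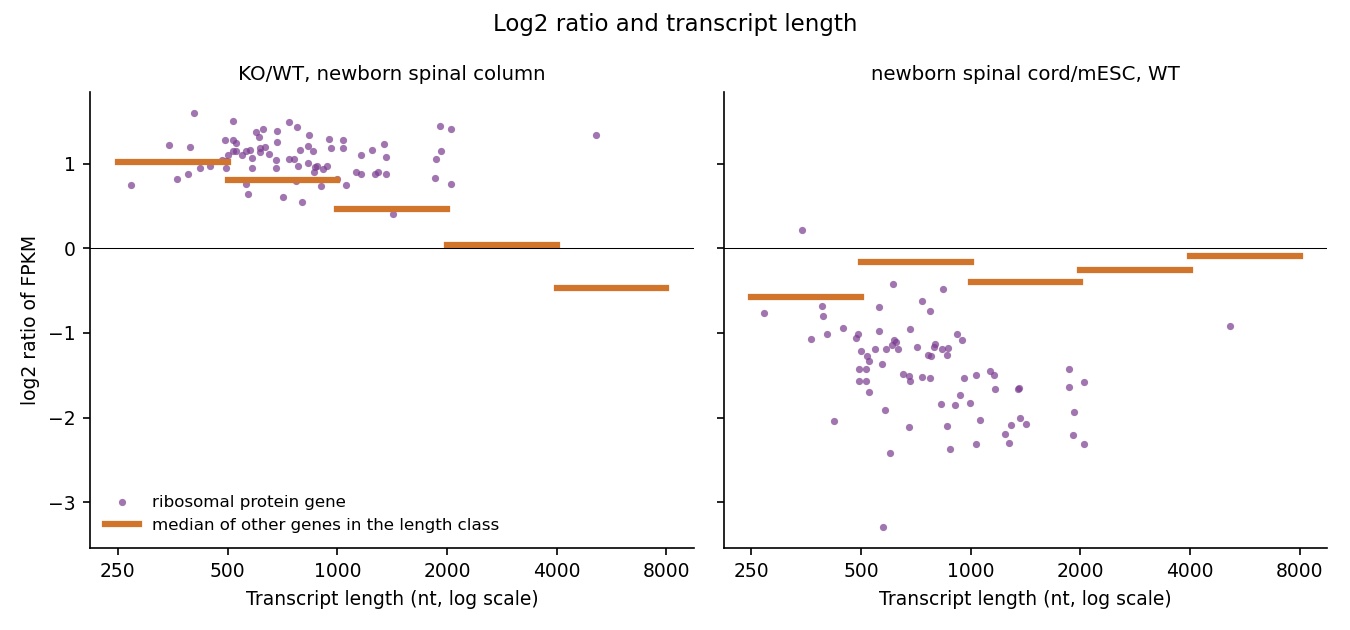
Log2 ratio of FPKM against transcript length (nt, log axis) for the ribosomal protein genes with a mean of at least 10 FPKM and a length (purple points) and, as orange bars, the median of the other expressed genes in 5 classes of length, the last of which is open above 4000 nt. In spinal column the bars go from 1.02 to −0.47 with length while the points stay near 1.10, and for spinal cord over mESC every point except Rps27 lies below the bar of its class.

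Markers of cell types differed between the spinal column libraries as well. All 6 neuron markers were lower in the library labelled KO (median −0.86, summed 713 and 454 FPKM), of which 3 were past 2-fold. Of 5 markers of dividing cells 4 were higher (median 0.57, summed 30.0 and 43.8 FPKM) and Mki67 was lower, at 3.35 and 2.15 FPKM. The 3 erythroid markers that could be matched summed to 21.0 and 35.2 FPKM, and 2 of 5 muscle markers had values in both (Tnnt3 0.62 and Myh3 −0.95), with Acta1 listed at 0 in both libraries, Ckm in the one labelled KO and Myh8 in the one labelled WT. Of the 5 fibroblast markers, which summed to 3132 and 2476 FPKM, 3 were higher, with a median of 0.13 (0.43 with the trend on length removed), from Col1a1 at −0.92 to Lum at 1.17. The 5 cartilage markers, of which 3 were lower, had a median of −0.22. The part of these differences in the ribosomal protein values was not tested.

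Spinal cord held the lowest levels. Compared with the mESC WT library in the same table, 80 of 82 members were lower in spinal cord labelled WT, with a median log2 ratio of −1.43 (2.69-fold lower) against −0.26 over all 14348 genes. Past 2-fold lower were 68 of the 82 (82.9%), against 35.7% of all genes, and none was past 2-fold higher, against 30.5%. The 40S genes had a median of −1.27 and the 60S genes of −1.50. The mESC WT library is the same one that the mESC comparison of KO and WT uses, so both comparisons share it.

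The 14 members that were not past 2-fold lower were mostly of the small subunit: Rps27, Rps24, Rps29, Rps28, Rps21, Rps15a, Rps26, Rps25 and Fau, with Rpl39, Rpl19, Rpl23a, Rpl17 and Rpl32l of the large. Rps29 was at 2664 FPKM in mESC and 1663 in spinal cord (−0.68), Rps28 at 3907 and 2295 (−0.77), and Rps21 at 1941 and 1112 (−0.80).

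The spread between genes was wider than in any comparison of genotypes, with a standard deviation of 0.55 over the 79. Rps27l was at 458 FPKM in mESC and 46.8 in spinal cord (−3.29), the lowest of the well expressed genes, while its partner Rps27 was at 2082 and 2409 (0.21), the 1 well expressed gene that was not lower. Rpl39 was at 2289 and 1708 (−0.42), Rps24 at 1320 and 943 (−0.49) and Rpl19 at 1636 and 1061 (−0.62). Rps18 was at 2916 and 548 FPKM (−2.41), Rps6, the target of S6 kinase, at 1573 and 305 (−2.37) and Rpl5 at 1036 and 208 (−2.32). Among the low-level paralogs Rpl10l (9.80 and 0.00765 FPKM, −10.32) and Rpl39l (5.17 and 0.184, −4.81) were lowest and Rpl32l was higher (0.569 and 1.03, 0.86).

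Length went little with the ratio of all genes in this comparison. Over the 13191 genes with a length rho was 0.05, and the other genes of member length (n = 845) had a median of −0.21, with 32.2% lower past 2-fold. Among the 78 members rho was −0.47, the longer ones being lower. The 13 members up to 500 nt had a median of −1.02, 46 from 500 to 1000 nt of −1.28 and 18 from 1000 to 2000 nt of −1.97. With the trend of all genes removed, the median of the members was −1.12, with 79 of 80 below the curve and 44 past 2-fold. All 6 neuron markers were higher in spinal cord (median 4.62), and all 5 markers of dividing cells (median −4.50, summed 567 and 18.0 FPKM) and all 6 ES cell markers (median −5.94) were lower past 2-fold.

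From one culture stage to the next, where the values come from separately scaled tables, the largest step was from mESC to day 2. All 81 members were higher at day 2, with a median log2 ratio of 0.71 in libraries labelled WT and 0.70 in those labelled KO, against 0.04 and 0.01 over all genes. Past 2-fold were 8 members labelled WT, against 5.27% of all genes, and 12 labelled KO, against 6.02%, with none lower past 2-fold, against 7.95% and 8.37%. The 8 labelled WT were Rps21, Rpl36, Rps27, Rps12, Rpl34, Rps15a, Rps26 and Rps19, and all 8 were also past 2-fold in the libraries labelled KO, where Rpl14, Rps20 and Rps27a were among those that joined them. Rps21 was at 1781 FPKM in mESC and 4682 at day 2 labelled WT (1.39), Rpl36 at 1342 and 3361 (1.32), and Rps27 at 1912 and 4550 (1.25). With the trend on length removed the medians were 0.37 and 0.45, and 1 member labelled WT and 2 labelled KO were past 2-fold. Of the other genes of member length 7.47% labelled WT and 5.82% labelled KO were higher past 2-fold. Fibroblast markers moved with this step: the study grew the ES cells on feeder fibroblasts, and the 5 markers summed to 327 FPKM in mESC and 46.7 at day 2 labelled WT, and to 355 and 51.4 labelled KO (medians −1.29 and −1.34, 3 of 5 lower past 2-fold in each). Vim, a TOP mRNA of fibroblasts and other cells, was at 413 and 85.3 FPKM labelled WT (−2.28). The part of these cells in the ribosomal protein values was not tested.

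The later steps were small. From day 2 to day 4 the median was −0.14 labelled WT and −0.09 labelled KO, with 1 member past 2-fold higher and 2 lower labelled WT (background 15.7% and 13.8%), and 1 higher and 1 lower labelled KO (15.4% and 7.71%). From day 4 to day 6 it was 0.19 and 0.06, with 2 members past 2-fold higher in each and none lower, against 17% higher and 9.94% lower labelled WT, and 12.5% and 11.1% labelled KO. The members past 2-fold in these steps were low-level paralogs in every case. From day 2 to day 4 Rpl32l was higher (2.68 labelled WT and 3.07 labelled KO), Rpl10l was lower (−2.84 and −1.51), and Rpl39l was lower labelled WT (−2.32). From day 4 to day 6 Rpl10l (3.33 and 3.09) and Rpl39l (3.59 and 2.71) were higher. Markers moved with these steps. From day 2 to day 4 all 6 ES cell markers were lower (median −4.03 labelled WT and −1.25 labelled KO), and the fibroblast markers had medians of −3.80 (5 of 5 lower) and −0.95 (4 of 5). From day 4 to day 6 the ES cell markers had medians of 3.48 (5 of 6 higher) labelled WT and 2.16 (6 of 6) labelled KO. All 5 fibroblast markers were higher (3.78 and 1.90). Labelled WT, all 6 neuron markers (median 3.37) and all 6 motor neuron markers were higher past 2-fold. Labelled KO, 2 of the 4 neuron markers measured were higher and 2 lower (median 0.32). The 1 motor neuron marker measured there was lower. Of the 5 markers of dividing cells, 5 were lower labelled WT (median −0.72) and 4 labelled KO (−0.28). The part of these marker changes in the values of the ribosomal protein genes was not tested. The step from day 4 to day 6 turned to −0.32 and −0.40 when the trend on length was removed, and the step from day 2 to day 4 labelled KO to 0.10.

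Some members are followed here through all libraries because of their roles. Rpl5 and Rpl11 join the 5S rRNA before it enters the large subunit and can hold back MDM2, the ligase that removes p53. Rpl5 was at 951 FPKM labelled WT and 975 labelled KO in mESC, 1299 and 1352 at day 2, 1282 and 1541 at day 4, 1207 and 1310 at day 6, 326 and 868 in spinal column and 208 in spinal cord. Rpl11 was at 2134 and 1979 FPKM in mESC, 2469 and 2534 at day 2, 2512 and 2069 at day 4, 3172 and 2635 at day 6, 1410 and 2843 in spinal column and 1021 in spinal cord. The library labelled KO was thus the higher one for Rpl5 in all 5 pairs and for Rpl11 at day 2 and in spinal column.

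Rps19, a small subunit gene in which loss of 1 copy causes Diamond-Blackfan anemia in people, was at 1068 and 1109 FPKM in mESC, 2224 and 2545 at day 2, 2092 and 2708 at day 4, 2605 and 2869 at day 6, 723 and 1659 in spinal column and 510 in spinal cord. The library labelled KO was the higher of each pair. Rps6, the small subunit protein that S6 kinase phosphorylates, was at 1444 and 1390 FPKM in mESC, 2043 and 2094 at day 2, 2033 and 2099 at day 4, 2352 and 2148 at day 6, 397 and 778 in spinal column and 305 in spinal cord, lower in every tissue library than in every culture.

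The 4 X-linked members, on the chromosome that also carries Taf9b, had values on either side of the other members. Rps4x had log2 ratios of KO over WT of 0.06, 0.12, 0.19 and 0.05 in the cultures and 0.74 in spinal column. Those of Rpl10 were 0.07, 0.07, 0.05, −0.12 and 0.55 in the same order, those of Rpl36a 0.06, −0.03, −0.16, −0.28 and 1.05, and those of Rpl39 −0.00, 0.13, −0.06, −0.31 and 1.13. They thus fell on both sides of the medians of the members at every culture stage and in spinal column.

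Of the paralogs 4 were low in every culture. Rpl3l, which replaces Rpl3 in striated muscle, was between 0.129 and 0.959 FPKM in the 8 cultures and at 0.172 in spinal cord, against 20.4 FPKM in spinal column labelled WT and 42.4 in the one labelled KO (1.06). The spinal column libraries were thus the only ones above 1 FPKM, and Rpl3 itself was at 571 and 1046 FPKM there. Of the muscle markers named above, Tnnt3 and Myh3 had values in both spinal column libraries. The 2 markers that could be summed over all libraries were at 3348 and 4707 FPKM there and at 24.2 in spinal cord. In spinal cord the 4 muscle markers measured were all higher than in mESC (median 7.61).

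Rpl39l, a paralog of the X-linked Rpl39, was at 4.75 FPKM labelled WT and 1.43 labelled KO in mESC, 5.29 and 1.52 at day 2, 1.06 and 1.61 at day 4, and 12.7 and 10.6 at day 6. In spinal column it was at 0.102 and 2.86 FPKM (4.82) and in spinal cord at 0.184. Its libraries labelled KO were thus low in mESC and at day 2 and high in spinal column, where 1 of the values is under 1 FPKM. Rpl10l, a paralog of the X-linked Rpl10, was at 8.99 and 5.61 FPKM in mESC, 10.7 and 7.70 at day 2, 1.5 and 2.71 at day 4, and 15.1 and 23.1 at day 6, and it was listed at 0 in both spinal column libraries, where Cuffdiff did not test it. Both day 4 libraries were thus the lowest of the cultures for Rpl10l, and the day 4 library labelled WT was the lowest of them for Rpl39l.

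Rpl32l was between 0.112 and 2.84 FPKM in all libraries, at 0.522 and 0.330 in mESC, 0.395 and 0.338 at day 2, 2.53 and 2.84 at day 4, 2.60 and 2.33 at day 6, 0.112 and 1.13 in spinal column (3.34) and 1.03 in spinal cord. Its locus in the table is merged over 132671 bp and reads of neighboring transcripts may be in it. The same limit holds for the wide loci of Rpl31 (110897 bp), Rpl5 (86550 bp), Rpl32 (34187 bp) and Rps27a (32511 bp). Rps27l was at 421 and 432 FPKM in mESC, 687 and 729 at day 2, 622 and 623 at day 4, 641 and 801 at day 6, 116 and 259 in spinal column and 46.8 in spinal cord, so all tissue values were below all culture values. Rpl36al, the autosomal paralog of Rpl36a, was at 719 and 696 FPKM in mESC, 785 and 830 at day 2, 617 and 651 at day 4, 743 and 718 at day 6, 308 and 729 in spinal column and 241 in spinal cord.

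**Figure D4:**
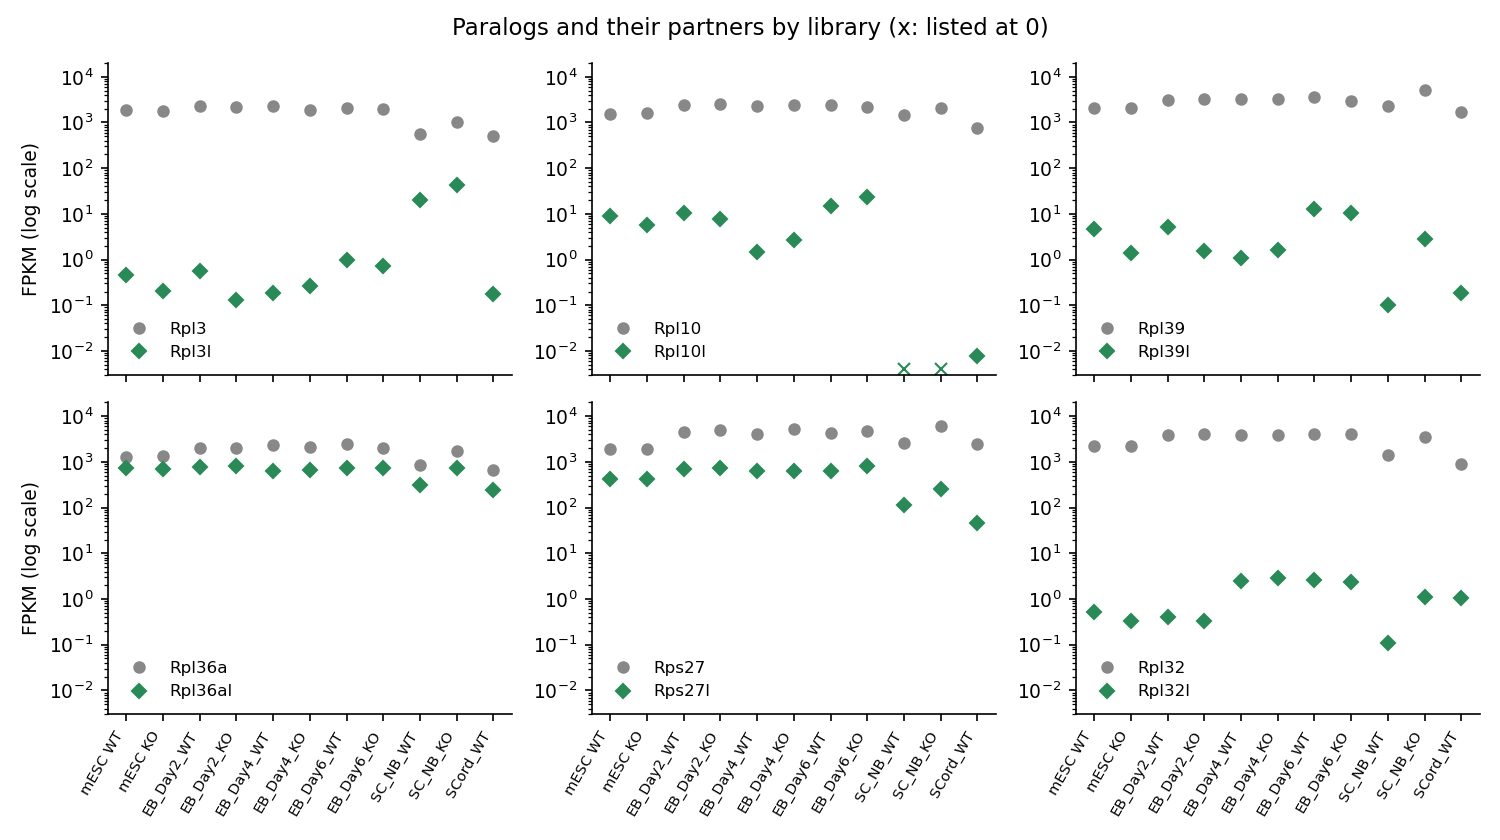
FPKM (log axis) of 6 paralogs (green diamonds) and their partners (grey circles) in the 11 libraries, with crosses where the table lists 0. Rpl3l is above 1 FPKM only in spinal column (20.4 and 42.4), and Rps27l is lowest in spinal cord (46.8) where Rps27 stays at 2409.

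Other parts of the translation machinery were looked at from lists. In spinal column the 76 mitochondrial ribosomal protein genes, which serve the ribosome of the mitochondrion, were all higher in the library labelled KO (median 0.82), from Mrps2 at 0.07 to Mrpl33 at 1.53. Of the 76, 21 were past 2-fold, against 9.07% of all genes and 34.0% of the other genes of member length. With the trend on length removed their median was 0.30, beside 0.29 for the members. The 5 elongation factor genes measured there had a median of 0.80 (0.52 with the trend removed), from Eef2 at 0.02 to Eef1b2 at 1.09. Of 14 other genes with TOP mRNAs 11 were higher (median 0.58, 0.08 with the trend removed), led by Rack1, a protein of the 40S head (1.35), with Eif4b lowest (−0.13).

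Genes that make the ribosome, rather than form it, were looked at in the same way. The 20 ribosome biogenesis genes had a median of 0.30 in spinal column (0.16 with the trend removed), from Nat10 at −0.59 to Nip7 at 1.24, the 18 genes of RNA polymerase I and III one of 0.04 (0.20), and 10 genes of the mTORC1 and Myc axis one of −0.02 (0.12). In spinal cord against mESC, where 35.7% of all genes were lower past 2-fold, the order of the lists was different. All 20 biogenesis genes were past 2-fold lower (median −2.75), with Gnl3, a nucleolar GTPase of stem cells, lowest at −4.36, and all 6 elongation factor genes as well (median −2.13). The other TOP mRNAs had a median of −1.81 (10 of 14 past 2-fold lower), the polymerase genes of −1.86 (14 of 18), the mTORC1 and Myc axis of −1.11 (5 of 10), and the mitochondrial ribosomal protein genes of −0.94 (36 of 76). In the cultures the lists had medians between −0.23 and 0.27 for KO over WT.

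ChIP-seq of WT motor neuron EBs placed RNA POL2 at nearly all of these genes and TAF9B at a minority. With a peak counted when its midpoint lay within 500 bp of the start site (TSS), 78 of the 80 members expressed at day 6 and with a TSS had an RNA POL2 peak (97.5%, 95% exact binomial interval 91.3 to 99.7), against 54% of all 12267 expressed genes. The 2 without one were Rpl10l and Rpl39l. A TAF9B peak was present at 35 of 80 (43.8%, interval 32.7 to 55.3), against 30.6% of all expressed genes and 38.1% of 732 other genes above 100 FPKM in both day 6 libraries. The interval of the members holds that last share, so a difference from other abundant mRNAs was not detectable in 80 genes. RNA POL2 peaks were present at 82.4% of the 732.

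Every one of the 35 TAF9B peaks shared 1 bp or more with a peak of RNA POL2, against 72.7% of the 3751 TAF9B peaks at the start sites of all expressed genes. The median MACS score of the TAF9B peaks was 112 (105 over all expressed genes with a peak) and that of the RNA POL2 peaks 387 (156). The highest TAF9B scores were at Rpl18 (367.5, mm9 chr7:52970497-52970846), Rpl23a (299.84, chr11:77996637-77997249) and Rps27l (239.00, chr9:66793698-66794000), all of them within 500 bp of an annotated start. The start at Rpl18 is that of another annotated transcript, 2614 bp from the start of the one nearest to the locus, where RNA POL2 had a peak and TAF9B had none. With only the start of the transcript nearest to the locus, a choice made after seeing the data, 32 of 80 members had a TAF9B peak and 77 an RNA POL2 peak, against 28.0% and 51.1% of all expressed genes. The TAF9B peaks not counted then are those of Rpl18, Rpl24 (7529 bp apart) and Rpl38 (78 bp apart). The highest RNA POL2 score was at Rpl3 (1221.07, chr15:79913265-79914358). How the score was computed, and against which control, was not stated.

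**Figure D5:**
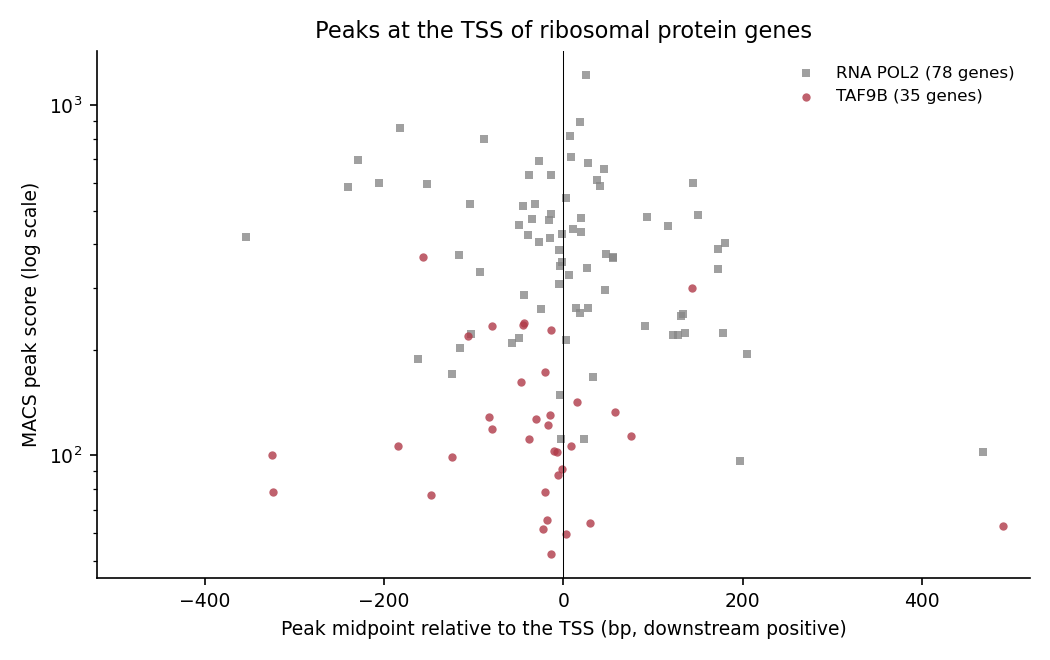
MACS peak score (log axis) against the distance of the peak's midpoint from the TSS (bp, downstream positive) for ribosomal protein genes with a TAF9B (red circles, 35 genes) or RNA POL2 peak (grey squares, 78 genes). TAF9B midpoints have a median of −20 bp, and the highest TAF9B score is 367.5 at an annotated start of Rpl18 that lies 2614 bp from that of the transcript nearest to the locus.

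The ratios were also taken for well expressed members with and without a TAF9B peak. The 35 genes with one had a median FPKM of 2352 at day 6 labelled WT and the 43 without of 2706. Their median log2 ratios of KO over WT were 0.04 and 0.06 in mESC, 0.07 and 0.07 at day 2, 0.11 and 0.15 at day 4, and −0.06 and −0.03 at day 6. In spinal column they were 1.04 and 1.10, and in spinal cord over mESC −1.56 and −1.26. ChIP and RNA come from different lines and days, and 2 of the 80 genes, Rpl10l and Rpl39l, had a mean below 10 FPKM and were left out of this split.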

How the data were processed

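The 11 poly-A RNA-seq libraries were deposited as 6 tables of 2 libraries each. The authors mapped reads to RefSeq genes with TopHat and computed FPKM per locus with Cuffdiff, scaled within each table, and the deposited FPKM were used unchanged. The tables' columns of log2 fold change and p-value are the authors' own comparisons and were not used. The MACS score of each peak was deposited by the authors after mapping to mm9 with Bowtie. Versions were not given in the sources used here. The IgG control was not analysed here. No counts are in the tables, so the depth of each library is unknown, and no interval was set on FPKM. The binomial intervals on shares of genes cover counting error only.

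Symbols were matched through RefSeq accessions. The members and all lists were chosen with earlier results of these data known. The genes named are the paralogs and their partners, Rpsa, Rplp0 to Rplp2 and Fau, the 5 highest and 5 lowest members by mean FPKM, the 3 highest and 3 lowest ratios of each comparison, members past 2-fold in a KO over WT comparison, the 3 highest TAF9B scores and the extremes of each list, and the others were chosen after their values were seen. Some genes that meet this rule are not reported here by name. A gene counted as measured above 1 FPKM in at least 1 library. Log2 ratios had no pseudocount, and loci marked FAIL or HIDATA (147 in any table, no member) were left out. Transcript length was that of the GENCODE vM1 (NCBIM37, the mm9 assembly) protein-coding transcript with ends nearest to the locus, at hand for 81 of 83 members (not Rpl41 and Rpl32l). The trend with length was a lowess curve with a fraction of 0.3. The rule for length, the letters CTTTCC, the place of the C/T run, the class above 100 FPKM and the removal of FAIL and HIDATA loci were settled after values had been seen. The counting was tested on simulated data: it found 200 of the 200 simulated 4-fold changes in every one of the 6 comparisons within a table. These changes were set well past the 2-fold cut with little spread. The simulation thus checks the code only and not the precision of a ratio between single libraries. KO and WT were compared over the 4 culture stages with limma 3.58.1 in R 4.3.3. The fit used log2(FPKM + 1), stage as a block, trended variance, Benjamini-Hochberg adjustment over all genes and 3 residual degrees of freedom. This test was added after values had been seen. It found 200 of 200 simulated 2-fold changes, where all genes had the same small spread and each change was equal at every stage. In the deposited values it called 0% of genes, so the simulation checks the code and not what the fit can detect here. Promoter windows were RefSeq's on GRCm38.p6, and no coordinate was converted between builds. Python 3.11.15, pandas 2.3.3, statsmodels 0.14.6 and scipy 1.17.1 were used.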

Additional observations from a re-analysis of the deposited data

Results flagged for a closer look

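The log2 ratio of Taf9b in KO over WT libraries had opposite signs in tissue and in cultures. It was −1.01 in spinal column, and 2.51 in mESC, 2.98 at day 2, 1.12 at day 4 and 1.55 at day 6. FPKM is given per locus, so signal from single exons could not be seen. With 1 library per label this difference was not tested.

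Rpl39l also had opposite signs, at −1.74 in mESC, −1.80 at day 2 and 4.82 in spinal column. The level in the spinal column library labelled WT was 0.102 FPKM, and the difference was not tested.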

How the results depend on the processing

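The paired fit over the 4 culture stages (stage as a block in limma), chosen after seeing the data, called 0 members in all 10 settings: as reported, with 0.1 FPKM added, under the other filters, without a trend of the variance, with the trend on length removed and without each pair in turn, where 0 to 8 members had an unadjusted p under 0.05. The spinal column and spinal cord comparisons have no second pair. A median counted as unmoved within 0.1 on the log2 scale, a share within 10% of itself and a count within 1.5 times. Removing the trend with transcript length moved the median of KO over WT to 0.26 at day 4 and to 0.29 in spinal column, where 4 members stayed past 2-fold in place of 52. It moved spinal cord over mESC to −1.12 (44 past 2-fold), and the step from mESC to day 2 to 0.37 labelled WT and 0.45 labelled KO. It turned the steps from day 4 to day 6 to −0.32 and −0.40 and the step from day 2 to day 4 labelled KO to 0.10. With the length of the transcript that has the longest coding part, an alternative chosen after seeing the data, these medians were 0.27, 0.31, −1.13, 0.39, 0.47, −0.32, −0.38 and 0.11. Centring on the median of all genes gave −1.17 for spinal cord. Without a filter on low values, 2 members were lower past 2-fold in mESC and 2 at day 2. At 1.5-fold, 2 members passed in mESC, 2 at day 4, 2 at day 6 and 80 in spinal column. The remaining alternatives (1 FPKM added, members above 10 FPKM, other denominators of the shares, other peak windows, scores and overlaps, and, added after seeing the data, shares without FAIL or HIDATA loci and peaks at the start of the transcript nearest to the locus) left every value of the members to which they were applied within these limits. They were not applied to the counts past 2-fold in the culture steps or the counts with the same sign at all 4 stages. The correlations, the promoter shares and the split by TAF9B peak were not repeated under them either. Of the peak settings, scores above the median moved the TAF9B count of members most, to 26 of 80, with 74 for RNA POL2. The shares of all expressed genes then fell from 30.6% to 19.95% and from 54.0% to 30.9%. A window of 200 bp moved the RNA POL2 count of members most, to 72, with 32 for TAF9B, against 44.0% and 27.2% of all expressed genes. Leaving out a library was not possible. Depth is unknown, so the precision of values near 1 FPKM, as in the low paralogs, cannot be given, and outside the paired fit no spread between samples stands behind a ratio.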
